A study of Mus musculus with 4 samples.

Results

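A set of 10 genes that mark stem cells and mammary progenitors was examined for peaks of pulled-down chromatin. The peaks came from a pull-down experiment on the long noncoding RNA Malat1 in the mouse breast cancer line 4T1-TGL. The genes were a fixed list of Aldh1a1, Cd44, Prom1, Procr, Sox2, Sox9, Lgr5, Itga6, Elf5 and Gata3, 10 of 21627 protein-coding genes on chromosomes 1 to 19 and X. All peaks with a summit in the gene body or within 5 kb of either end were taken, 39 of the 77823 peaks of the whole list, and they were set against the flanks of 1 Mb on either side. In ChIRP, biotin-labelled antisense oligonucleotides pull a nuclear RNA out of sonicated chromatin and the DNA recovered with it is sequenced. The labels name 4 libraries, all of BALBC strain and WT genotype and each the single library of its group. They are pull-downs with a Malat1 probe pool called Even, with a pool called Odd and with Lacz probes, and an input. Lacz probes are commonly used as a control that targets no cellular RNA. The deposited peaks came from 1 merged pull-down against 1 input, and the sources used here do not give which pull-downs were merged. The Lacz pull-down may be among them, and no peak was compared with Lacz alone, so specificity for Malat1 was not tested. No value per library was analysed, so no peak has a replicate error and every p-value describes this peak list only. The labels do not say that cultures were separate, and the line is a single tumour line, so nothing here extends to mammary tissue or to sorted stem cells.

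Malat1 is a highly abundant RNA of nuclear speckles that has been found near the bodies of active genes in other cells. The genes examined come from different layers of the stem and progenitor programme. Aldh1a1, Cd44, Prom1, Procr, Lgr5 and Itga6 encode an enzyme and surface proteins by which such cells are sorted. Sox2, Sox9, Elf5 and Gata3 encode transcription factors, of which the first 2 are tied to self-renewal and the last 2 to luminal fate in the mammary gland. Expression was not measured in this series, so whether 4T1-TGL cells express these markers was not tested.

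A peak is described by its tags, the count of pull-down reads in it, and by its fold, the authors' value for how far the pileup at the summit exceeded the strongest nearby input signal after scaling. The pull-down held 851227 tags after duplicate removal and the input 50030325. A peak of 3 tags, the fewest of any peak, can therefore carry a fold above 100. The implied input is the height divided by the fold, in units of the genome mean, and was derived here as a guide to local input. Its lowest value on chromosomes 1 to 19 and X was 1.00. The genome mean thus acts as a floor, and where nearby input was lower, neither the fold nor the implied input shows it. Intervals on tags are exact 95% Poisson intervals and cover counting error only, on the assumption that tags are independent.

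The strongest peaks of Aldh1a1 and Prom1 lay directly over a transcription start listed by RefSeq. Each of these genes has another listed start with no peak over it, and the 250 bases before all 4 starts are printed here to compare covered with uncovered starts (RefSeq, GRCm38.p6, read 5′ to 3′ on the gene's strand). In the first pair, the covered starts, capitals mark the bases that lie under the peak. In the second pair, the uncovered starts, capitals mark matches to CCAAT or GGGCGG. Another CCAAT spans the downstream Aldh1a1 start and is not marked.
Aldh1a1, upstream start, chr19:20492333-20492582, plus strand: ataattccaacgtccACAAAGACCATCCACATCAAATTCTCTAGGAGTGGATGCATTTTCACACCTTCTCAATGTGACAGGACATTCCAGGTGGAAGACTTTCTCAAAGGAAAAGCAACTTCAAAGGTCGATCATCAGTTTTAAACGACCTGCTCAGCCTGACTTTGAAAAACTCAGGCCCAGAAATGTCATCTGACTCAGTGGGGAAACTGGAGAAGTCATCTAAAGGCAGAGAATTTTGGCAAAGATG
Prom1, downstream start, chr5:44094769-44095018, minus strand: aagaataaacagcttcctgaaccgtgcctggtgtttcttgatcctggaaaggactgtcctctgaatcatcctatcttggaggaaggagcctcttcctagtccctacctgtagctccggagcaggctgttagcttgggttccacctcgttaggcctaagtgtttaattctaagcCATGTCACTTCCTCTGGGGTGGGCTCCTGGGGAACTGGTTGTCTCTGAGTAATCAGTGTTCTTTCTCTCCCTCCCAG
Aldh1a1, downstream start, chr19:20601718-20601967, plus strand: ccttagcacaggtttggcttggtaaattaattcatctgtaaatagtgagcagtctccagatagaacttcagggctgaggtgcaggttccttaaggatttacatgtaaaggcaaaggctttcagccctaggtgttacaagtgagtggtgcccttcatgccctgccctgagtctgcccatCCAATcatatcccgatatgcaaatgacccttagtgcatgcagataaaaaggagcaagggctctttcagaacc
Prom1, upstream start, chr5:44101737-44101986, minus strand: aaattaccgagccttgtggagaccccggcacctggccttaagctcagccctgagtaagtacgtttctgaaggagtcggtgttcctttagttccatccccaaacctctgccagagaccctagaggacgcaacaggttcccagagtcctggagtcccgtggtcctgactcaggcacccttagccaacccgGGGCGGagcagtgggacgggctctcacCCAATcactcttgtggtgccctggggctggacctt

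The Aldh1a1 peak covered 285 of the 300 bases from 250 before to 50 after the upstream start, and the Prom1 peak covered 127 of the 300 around the downstream start. The bases printed before the covered Prom1 start end in a pyrimidine-rich stretch and AG, letters that also stand at the 3′ end of introns. Whether transcription begins at either covered start in these cells was not tested. The set of RefSeq starts used here held 10 starts for 7 of the genes. It had no entry for Lgr5, Itga6 and Sox9. The set may also lack starts of the other genes. The Gata3 gene, on the minus strand, reaches 9887953, and its listed start is at 9878600. A peak overlapped 2 of the 10 windows of 300 bases, against 632 of all 32619 listed windows (1.94%), and a peak of at least 30 tags overlapped 49 windows in all (0.150%), the same 2 among them. The Aldh1a1 peak at a gene end and the high fold at Prom1 were known from earlier results when these genes were listed, so this count is a description.

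On both strands of every window 5 letter strings were searched. They were TATAAA for the TATA box, CCAAT for the box of that name, GGGCGG for the GC box, and the repeats GAGAGAGA of purines as well as CACACACA of alternating bases. The strings share no common part long enough for 1 match to hold another, and none was present in either covered window. CCAAT stood in 37.6% of all windows, GGGCGG in 35.9%, TATAAA in 13.7%, CACACACA in 4.11% and GAGAGAGA in 3.96%. The covered Aldh1a1 window held 3 CpG and 43.3% G and C, and the covered Prom1 window held 4 CpG and 50.3%. Over all windows the medians were 7 CpG and 53.0%. Among the 49 windows with a peak of at least 30 tags the medians were 5 CpG and 52.3%. The windows richest in CpG among the marker genes were those of Sox2, with 27, and Gata3, with 22, and no peak overlapped them.

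Aldh1a1, which oxidises retinaldehyde to retinoic acid and underlies the ALDH activity assay for stem cells, held the strongest peak of the 10 genes. The gene (chromosome 19, 20492583 to 20643463, gene ID 11668) had 3 summits. The first peak, at 20492348 to 20492801, held 69 tags (53.7 to 87.3), a height of 17 and a fold of 856. Its summit lay 39 bp before the upstream start. By fold it ranked 153 of 77713 peaks on chromosomes 1 to 19 and X, and it was the highest of the 37 peaks in the gene and its flanks, whose strongest flank peak reached 464. It held 89.6% of the tags in peaks at Aldh1a1. The other 2 peaks, of 5 and 3 tags, had folds of 241 and 175, close to the flank median of 179. The lncRNA gene E030003E18Rik begins inside the same peak, which shares 87 bp with it, so the peak cannot be assigned to Aldh1a1 alone. The downstream start of Aldh1a1 lies 109 kb further on, and no summit was nearer to it than 20.7 kb. The gene from that start to its end is 41.5 kb long. The implied input of the strong peak was 1.19 times the genome mean, against a flank median of 1.04.

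Prom1 encodes CD133, a glycoprotein of membrane protrusions (chromosome 5, 43993621 to 44102047, gene ID 19126), and held 6 summits. Its strongest peak, at 44094522 to 44094845, had 36 tags (25.2 to 49.8) and a fold of 590, with the summit 42 bp after the downstream start. A peak of 3 tags lay 1209 bp after the upstream start, with a fold of 95.1. Peaks of 16 and 6 tags within the gene had folds of 159 and 128, and another of 3 tags had 139. The last, of 15 tags and fold 277, lay 2894 bp beyond the far end of the gene. Peaks at Prom1 thus ranged from 3 to 36 tags, and 1 of the 6 reached 30.

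Procr, the endothelial protein C receptor and a marker of multipotent mammary stem cells, had a single peak (gene at chromosome 2, 155751125 to 155755478, gene ID 19124). The peak, at 155751348 to 155751780, held 46 tags (33.7 to 61.4) with a fold of 561, and its summit lay 283 bp after the listed start. It did not reach the promoter window. Only 1 of the 134 peaks in the gene and its flanks had a higher fold, 590 in Ncoa6, a nuclear receptor coactivator gene. The implied input at the Procr peak was 1.71, and the median in its flanks 1.75.

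Cd44, the hyaluronan receptor used with CD24 to sort breast cancer stem cells, had the most summits, 9, all inside its body (chromosome 2, 102811141 to 102901669, gene ID 12505). Its strongest peak, at 102850046 to 102850326, held 35 tags (24.4 to 48.7) with a fold of 601 and lay 51.4 kb after the listed start. A further 4 peaks held 10 or more tags, with folds of 352, 323, 316 and 202. The last of these, of 10 tags, had its summit 830 bp after the start. The remaining 4 held 3 to 7 tags and folds of 85.3 to 183. Unlike at Aldh1a1, the tags at Cd44 were spread along the gene, and the strongest peak held 30.4% of the 115 tags in its peaks.

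**Figure D1:**
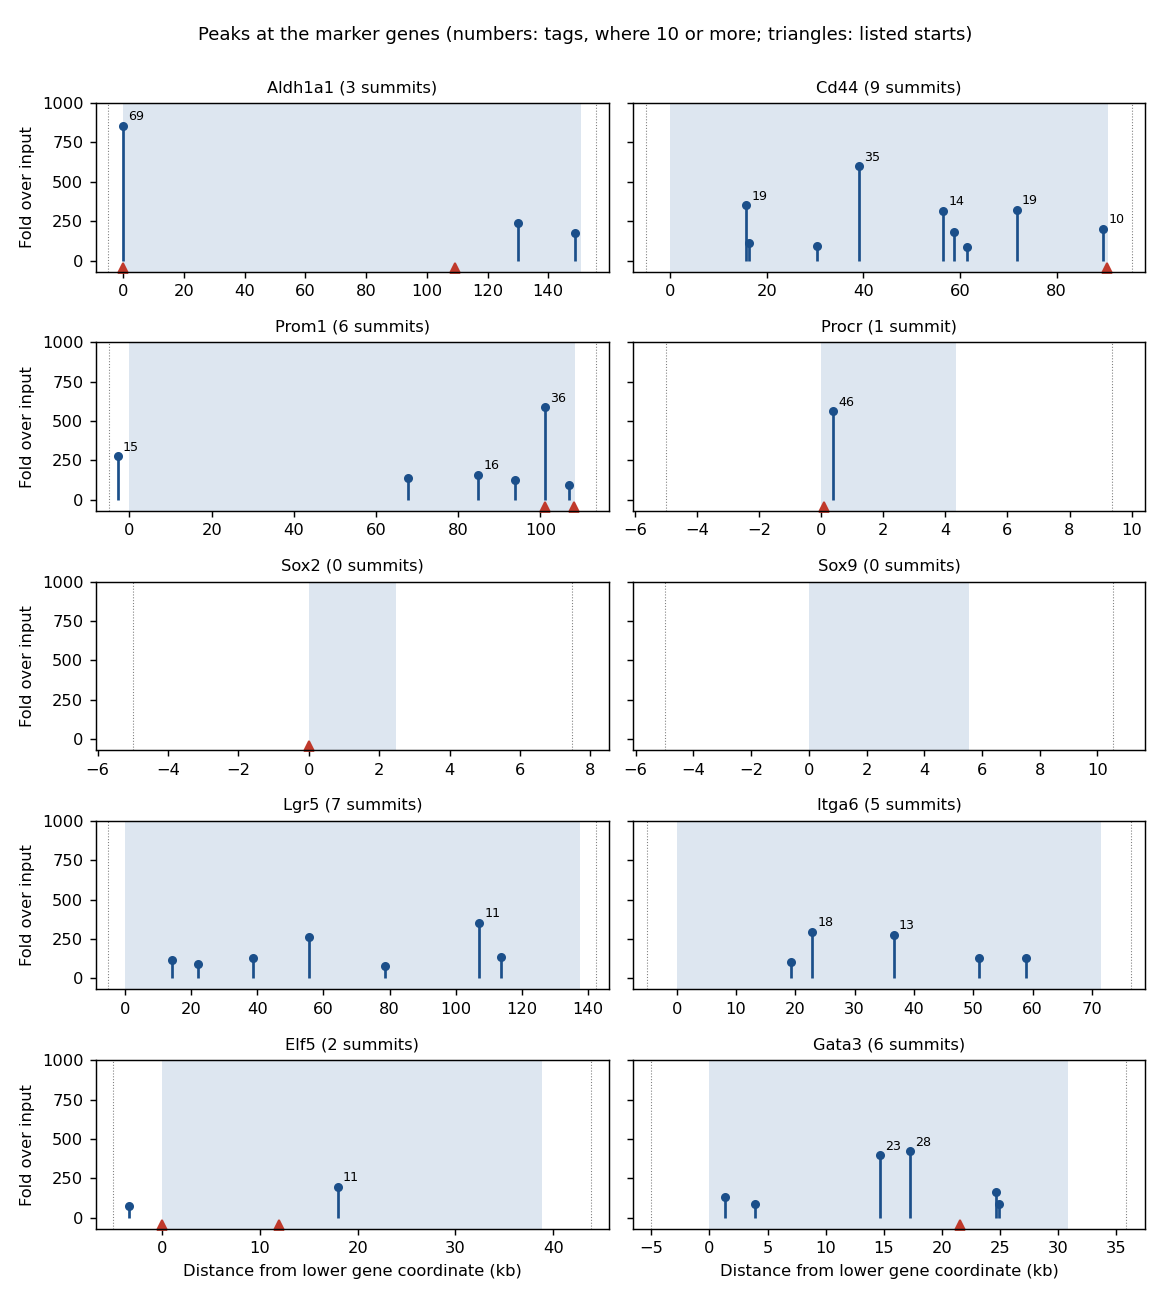
Peaks at each of the 10 genes: the horizontal axis gives distance from the lower gene coordinate in kb, the vertical axis the authors' fold over input, shading the gene body, dotted lines the limits 5 kb beyond it, and triangles the listed starts. The highest stem, with 69 tags, stands at the edge of Aldh1a1, Cd44 holds 9 summits along its body, and Sox2 and Sox9 hold none.

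**Figure D2:**
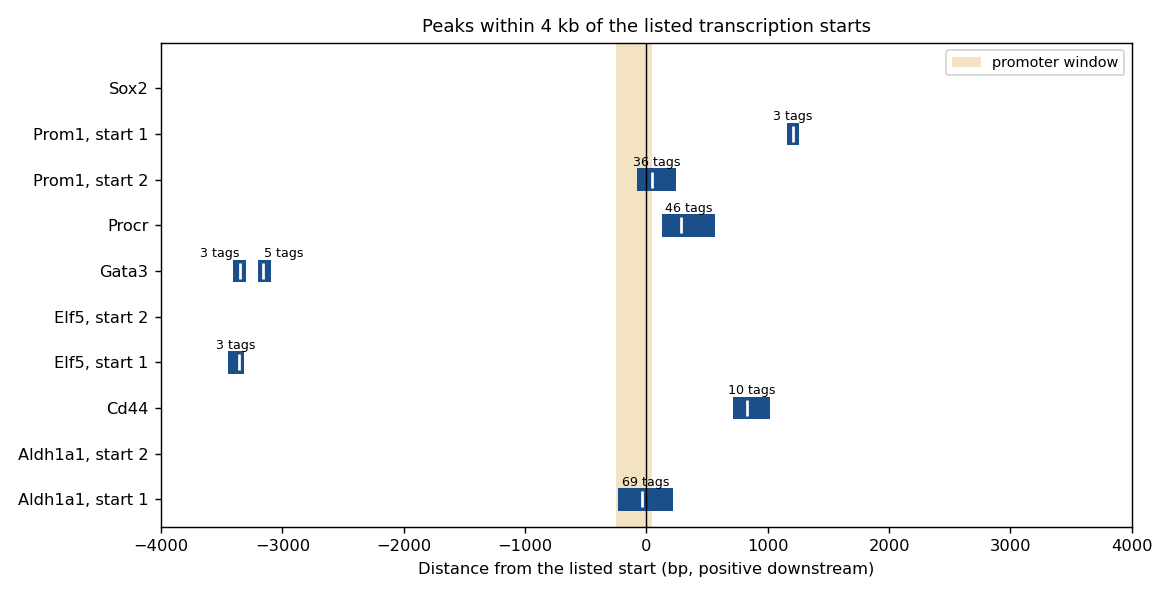
Peaks within 4 kb of the 10 listed transcription starts of 7 genes: bars show the extent of each peak in bp from the start (positive downstream), white marks the summit, and the band the window from 250 bp before to 50 bp after. Only the bars of 69 tags at Aldh1a1 and 36 tags at Prom1 enter the band, and those of Procr and Cd44 lie just downstream.

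Lgr5, the R-spondin receptor that marks stem cells of gut and other epithelia, had 7 weaker summits along its body (chromosome 10, 115450314 to 115587780, gene ID 14160). Their tags ranged from 3 to 11 and their folds from 82.1 to 355. The highest, at 115557146 to 115557326, was exceeded by 4 of the 69 peaks in the gene and its flanks. None of the 7 lay in A930009A15Rik, a protein-coding gene within Lgr5. The peak of the lowest fold but 1, 91.7, had the highest implied input of any of the 39 peaks, 2.61.

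Itga6, the laminin-binding integrin subunit CD49f of basal mammary cells, had 5 summits (chromosome 2, 71786886 to 71858427, gene ID 16403). Peaks of 18 and 13 tags had folds of 297 and 277, and the other 3, of 3 tags each, had folds of 104 to 133. The gene thus had 2 peaks above the flank median of 119 by more than 2-fold, and none of 30 tags.

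Gata3, a zinc finger factor that specifies luminal cells, had 6 summits in a gene of 30.9 kb (chromosome 2, 9857078 to 9887953, gene ID 14462). Its density, 0.147 summits per kb, was the highest of the 10 genes, against 0.0355 in its flanks. Peaks at 9874196 to 9874429 and 9871548 to 9871995 held 28 (18.6 to 40.5) and 23 tags, with folds of 422 and 399. They lay 4273 and 6871 bp after the listed start. The other 4 peaks held 3 to 5 tags and folds of 85.3 to 166. A pair of them, with summits 189 bp apart, lay before the listed start and inside the lncRNA gene 4930412O13Rik, and cannot be assigned to Gata3 alone.

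Elf5, an ETS factor of alveolar progenitors, had 2 summits (chromosome 2, 103412098 to 103450989, gene ID 13711). The stronger peak, at 103429844 to 103430129, held 11 tags with a fold of 198 and lay 5969 bp after the second listed start. The other, of 3 tags and fold 73.9, lay 3358 bp before the first start. Among the 90 peaks in the gene and its flanks the stronger ranked 21, the lowest place of any best peak of these genes. The strongest flank peak belonged to Cd44, 510 kb away, and the flanks of the 2 genes overlap.

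Sox2 and Sox9, the HMG-box factors of pluripotency and of progenitor maintenance, had no summit. Sox2 (chromosome 3, 34649995 to 34652461, gene ID 20674) and Sox9 (chromosome 11, 112782210 to 112787757, gene ID 20682) are short, and their flanks predicted 0.268 and 0.474 summits. A count of 0 allows up to 3 summits, or 11.2 and 6.33 times the prediction, so a lack of summits relative to the flanks was not detectable here. The nearest summit to Sox2 lay 35651 bp away in a peak of 30 tags and fold 533 at 34614245 to 34614602. That peak is inside Sox2ot, the lncRNA gene that contains Sox2 and held 3 summits. The nearest to Sox9 lay 20002 bp away, with 3 tags and a fold of 102.

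A summit was thus present at 8 of 10 genes, where 60.8% of all protein-coding genes had one. That share was larger for longer genes, from 36.2% of genes under 10 kb to 65.4% at 10 to 50 kb, 85.8% at 50 to 100 kb and 95.5% at 100 to 200 kb. The median length of the 10 genes was 55.2 kb, against 17.3 kb for all, and the only ones under 10 kb are Procr, Sox2 and Sox9. A peak of at least 30 tags was present at 4 of 10, where 6.01% of all genes had one (16.0% at 100 to 200 kb). Those 4, Aldh1a1, Cd44, Prom1 and Procr, were listed with their high folds already known, so nothing is read from their count. Just below the limit of 30 stood Gata3, with 28 tags.

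The number of summits was then set against the number that the 1 Mb flanks predicted for the same length. Summed over the 10 genes there were 39 summits and 24.4 predicted, a ratio of 1.60, against 1.05 over all protein-coding genes. The median ratio was 1.20 for the 10 genes and 0.765 for all. It was 0.988 for genes of 100 to 200 kb and 0.936 for those of 50 to 100 kb. The ratio exceeded 1 at 7 of 10 genes and at 41.5% of all genes. That share, too, was larger for longer genes, from 34.0% under 10 kb to 44.6% at 10 to 50 kb, 46.0% at 50 to 100 kb and 48.9% at 100 to 200 kb. By an exact two-sided binomial test with Benjamini-Hochberg adjustment over 21416 genes, 0 of 10 genes passed, against 17 genes (0.0794%) called higher in all. With an unadjusted p under 0.05, 2 of 10 were higher, against 4.73% of all genes tested, and 0 were lower, against 0.551%.

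These 2 were Gata3 and Cd44. Gata3 had 6 summits where 1.45 were predicted, a ratio of 4.13 (exact 95% interval 1.47 to 9.45, unadjusted exact binomial p = 0.0046, adjusted 0.49). Merging summits closer than 1 kb, which was tried only after the data had been seen, left 5 at Gata3 where 1.35 were predicted (unadjusted exact binomial p = 0.014). Cd44 had 9 where 4.27 were predicted, a ratio of 2.11 (0.931 to 4.19, unadjusted exact binomial p = 0.046, adjusted 0.93), and after merging its unadjusted exact p was 0.069. The median implied input was 1.38 at the Gata3 peaks and 1.46 in its flanks, and 1.31 and 1.46 for Cd44. Single peaks lay above these flank medians, with an implied input of 1.85 at the strongest Gata3 peak and 1.65 at 1 Cd44 peak, and the part of local input in the counts was not tested. The ratios of Itga6, Lgr5, Prom1, Aldh1a1 and Procr were 1.73, 1.53, 1.30, 1.10 and 1.05, and that of Elf5 was 0.930. The interval of each of these 6 contained 1. The strong peak of Aldh1a1 therefore stood in a gene whose number of summits, 3, was close to the 2.73 predicted.

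**Figure D3:**
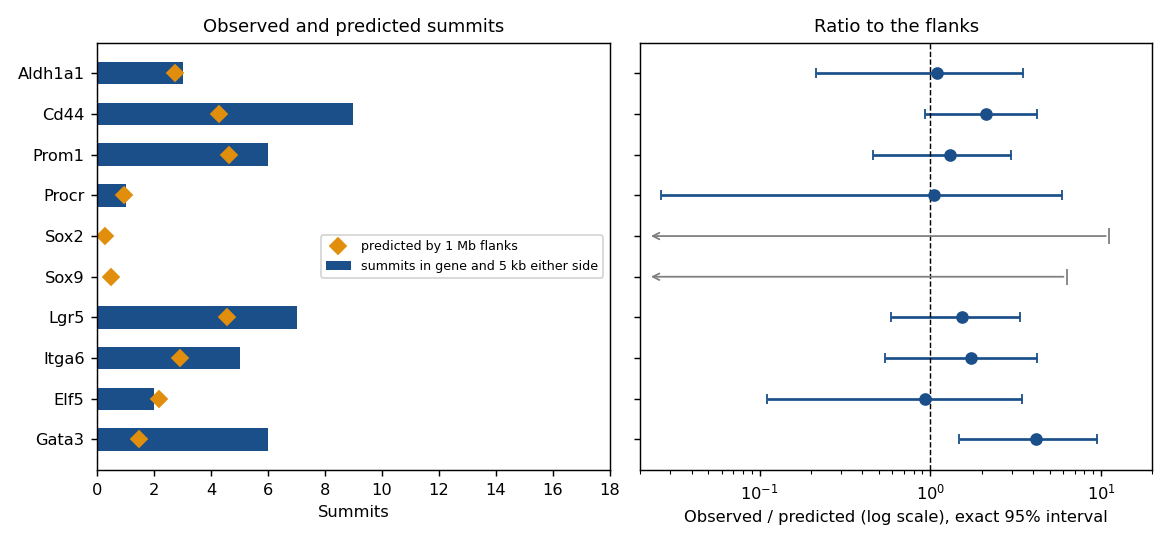
Left, summits in each gene with 5 kb on either side (bars) and the number predicted by its 1 Mb flanks (diamonds). Right, their ratio on a log axis with the exact 95% interval (points and bars), and for Sox2 and Sox9 the upper limit that 3 summits would give (grey arrows), where the interval of Gata3 alone lies wholly above 1. The grey limits leave out the counting error of the flanks and are lower than the exact ones.

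The 39 peaks at the marker genes had higher median tags and fold than the 663 peaks of their flanks, a difference that was not tested. Their median was 6 tags and a fold of 166, against 4 tags and a fold of 128 in the flanks and 5 tags and 133 over chromosomes 1 to 19 and X. Peaks of 3 tags made up 12 of the 39 (30.8%), 40.7% of flank peaks and 37.2% of all. The median implied input was 1.38 at the genes and 1.46 in the flanks. Of the 39 summits, 36 lay inside a gene body. Counting peaks of at least 10 tags alone, the 10 genes held 16 where 4.49 were predicted, a ratio of 3.56, against 10658 where 10204 were predicted over all protein-coding genes, a ratio of 1.04. The 4 genes listed with high folds known held 10 of these (2.43 predicted), and the other 6 genes held 6 (2.06 predicted, ratio 2.91). Of all settings tried, the cutoff of 10 tags gave the highest ratio over the 10 genes, so these sums are a description only. No p was computed for these sums, since the genes were chosen with results of these data known.

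**Figure D4:**
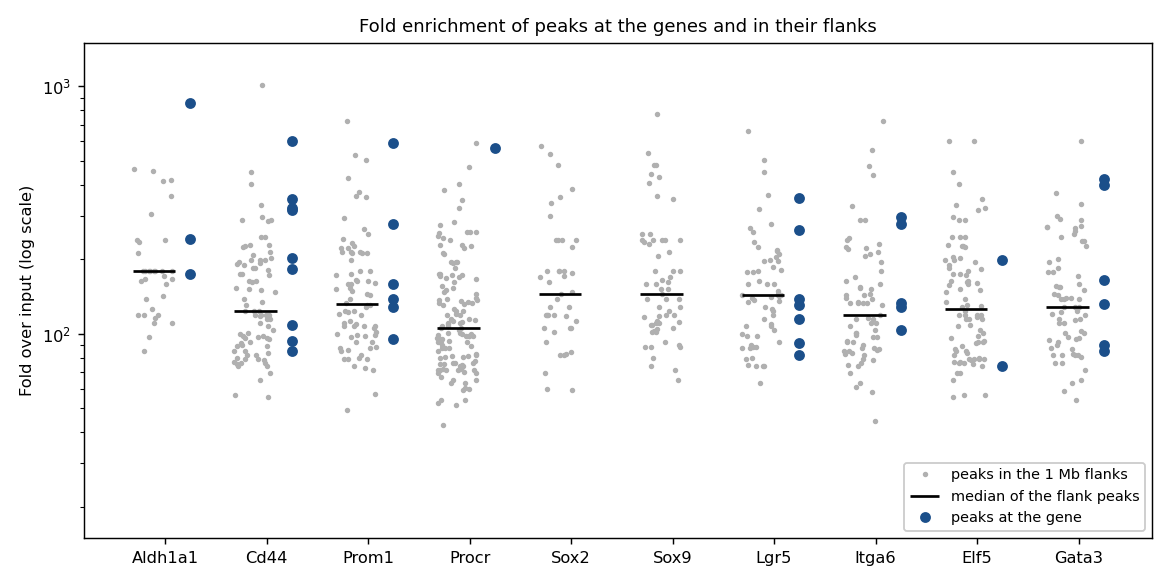
Fold over input, on a log axis, of every peak at each gene (blue) and in its 1 Mb flanks (grey, with the median as a black line). The Aldh1a1 peak at 856 stands above all its flank peaks, and at each of the other genes at least 1 flank peak is higher than the best peak of the gene.

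The strongest flank peak inside another protein-coding gene exceeded the best peak of the marker gene for Cd44 (1012 in Ldlrad3, 110 tags), Procr (590 in Ncoa6, against 561), Lgr5 (657 in Kcnmb4), Itga6 (723 in Rapgef4) and Elf5 (601 in Cd44). For Gata3 it was 335 in Itih5, for Prom1 526 in C1qtnf7, and for Aldh1a1 180 in Tmc1. Near Sox2 it was 128 in Dnajc19, and near Sox9 it was 770 in Cdc42ep4, 960 kb away. Counting all flank peaks, a stronger one existed for each of the 8 genes with a summit except Aldh1a1. The 3 genes most like Aldh1a1, by the fold of the best peak among 110 genes with 3 summits and a length within 25%, were Mtus1 (fold 875, 60 tags), Slc12a8 (792, 51 tags) and Ndst3 (778, 37 tags). Their absolute log2 differences in fold from Aldh1a1 were 0.033, 0.11 and 0.14.

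Relatives of the markers were counted by family, markers included. Of all protein-coding genes, 60.8% had a summit and 6.01% a peak of at least 30 tags, and both shares were larger for longer genes. The sources used here do not give the treatment of reads that match several paralogs, so values at close copies are uncertain. All 7 genes of the Aldh1a list had a summit, with 15 in all and 13.2 predicted, and 3 held a peak of at least 30 tags. Aldh1a2, which makes retinoic acid in the embryo, had a fold of 718 (31 tags), Aldh2, of ethanol metabolism, 337 (30 tags), and Aldh1l1 308. The Gata family had a summit at 5 of 6 genes, with 23 where 8.57 were predicted. Gata4, a factor of heart and endoderm, had 9 where 2.98 were predicted (unadjusted exact binomial p = 0.0049, adjusted 0.51) and a peak of fold 838. Gata5 had 4 summits and Gata6 had 3, with best folds of 294 and 170. Gata3 supplied 6 of the 23. The Sox family had a summit at 9 of 19 genes, with 47 summits where 63.4 were predicted. The long genes Sox6 and Sox5 held 15 and 16 of them, where 20.9 and 28.4 were predicted. The low family total thus reflects these genes and is not a trait of the whole family. Their best folds were 534 and 525, and Sox11 followed with 246.

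Of the Lgr family all 3 genes had a summit (22 in all, 13.8 predicted), with best folds of 306 at Lgr6 and 208 at Lgr4. Both prominin genes had one (10 in all, 5.94 predicted), and Prom2 had 4 where 1.32 were predicted (best fold 167). Among integrin alpha genes 15 of 18 had a summit (73 in all, 66.2 predicted), led by Itgav (fold 532), Itga3 (504) and Itga9 (485). The long gene Itga9 alone held 29 where 18.1 were predicted, and without it the family total shows no excess. All 6 genes of the Elf list, which holds Elf1 to Elf5 and Ehf, had one (9 in all, 11.4 predicted), led by Elf1 (333), Elf4 (299) and Elf5 itself (198). No gene of these families passed the adjusted threshold of the exact binomial test.

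Other genes of mammary lineage and stem cells were counted in 6 further lists, 0 of whose genes passed that threshold. Luminal progenitor and alveolar genes had a summit at 13 of 16 (94 in all, 78.6 predicted), with the highest folds at Itga2 (403), the prolactin receptor Prlr (360) and Kit (308). Of these 94 summits, Itgb3 supplied 55 (36.8 predicted) and Prlr 18 (15.6 predicted), so the list total mostly reflects these genes. Mature luminal genes had one at 9 of 14 (30 in all, 28.5 predicted), led by the keratin Krt19 (525), the oestrogen receptor Esr1 (327) and Tbx3 (241). Basal and myoepithelial genes had one at 10 of 14 (27 in all, 27.5 predicted), led by Trp63 (261), the oxytocin receptor Oxtr (212) and P-cadherin, Cdh3 (191). Genes of Wnt-responsive and quiescent stem cells had one at 12 of 15 (59 in all, 49.9 predicted), led by Olfm4 (359), the Wnt agonist Rspo1 (345) and Cdh5 (338). Pluripotency and self-renewal factors had one at 13 of 18 (60 in all, 40.6 predicted), led by Gli2 (591), Esrrb (312) and Notch3 (302). Of these 60 summits, Gli2 supplied 20 (9.56 predicted), Esrrb 13 (8.53 predicted) and Notch1 8 (3.41 predicted). That list total, too, mostly reflects a few genes. Surface and drug-resistance genes of cancer stem cells had one at 13 of 14 (36 in all, 30.4 predicted), led by the chemokine receptor Cxcr4 (632, 44 tags), Alcam (598) and Dclk1 (561). Over the 137 genes of all 13 lists that are not among the 10 markers, 104 (75.9%) had a summit, against 60.8% of all protein-coding genes. The median ratio to the flanks was 1.02, against 0.765 for all. A peak of at least 30 tags was held by 15 genes (10.9%), against 6.01% of all. The median length was 25.8 kb, against 17.3 kb for all, and both shares were larger for longer genes.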

How the data were processed

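The authors made all values in 1 run of MACS 1.4.4 on a merged pull-down and an input, with a p cutoff of 1e-05, per the file headers. The genome build is mm10 (GRCm38), from the submitters' processing notes. The sources used here do not give the aligner. Tags are the deposited count of reads per peak, and fold enrichment is the deposited ratio to scaled input. The deposited score, 10 times the negative log10 of p, and the deposited false discovery rate, 0 percent for every peak, were not used further. Summit height is the deposited signal at the summit. The 3 files agreed for all 77823 peaks. The pull-down held 851227 tags and the input 50030325. Genes and starts came from RefSeq tables of GRCm38.p6, by symbol. All 10 genes matched, and 7 of them had an entry in the set of starts. Summits in a gene with 5 kb on either side were compared with the 1 Mb flanks by an exact two-sided binomial test, with Benjamini-Hochberg adjustment over 21416 protein-coding genes on 77713 peaks of chromosomes 1 to 19 and X (Python 3.11.15, scipy 1.17.1, pandas 2.3.3). The test was checked on simulated counts, drawn independently around the flank prediction. Such counts hold no clustered summits, so the check does not cover clustering. Implied input used a mean background of 0.0167 tags per 53 bp. The members, gene lists and tests were chosen with earlier results of these data known. Named were all 10 members, up to 3 genes per list with the highest fold, the 3 genes most like the member of highest fold, and the gene with the strongest flank peak of each member. The alternatives changed the window, the flanks, the overlap and the tag or fold minimum.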

Additional observations from a re-analysis of the deposited data

How the results depend on the processing

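No paired analysis was possible because each group is a single library and the peaks come from 1 merged pull-down. Over the alternatives a summit was found at 8 of 10 genes in each of 8 settings, and 0 of 10 genes passed the adjusted exact binomial test in each of 11, with 1 or 2 at an unadjusted p under 0.05. Over all protein-coding genes, 26 passed in either direction, 65 with flanks of 2 Mb, 43 with 10 kb beside the gene, 16 with the body alone, 11 with flanks of 500 kb, 17 with annotated genes of the flanks, 9 with summits within 1 kb merged and 0 with only the peaks whose fold reached the median. The ratio over the 10 genes ran from 1.58 to 3.56, the latter with peaks of at least 10 tags. The adjusted exact p of Gata3 ran from 0.25 to 1 and that of Cd44 from 0.29 to 1. Aldh1a1 was below its flanks with the body alone (ratio 0.757), with flanks of 2 Mb (0.899) and with annotated genes of the flanks (0.603). With the body alone its best fold was 241, since the strong summit lies 39 bp outside. Elf5 was above its flanks with peaks of at least 10 tags (2.56), flanks of 500 kb (1.02) and merged summits (1.01). The cause was not tested.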

Other observations

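Among the 137 listed genes outside the 10 markers, 10 (7.30%) held more summits than their flanks predicted at an unadjusted exact binomial p under 0.05, against 4.73% of all genes tested, and 2 (1.46%) held fewer, against 0.551%. None passed after adjustment over all genes. Both shares were above those of all genes, but they rest on 10 and 2 genes and the difference was not tested. Nothing is read from them, and the values below are a description of single genes. Of these, chosen for mention after their values were seen, Foxa1, a pioneer factor of luminal cells, had 3 summits where 0.365 were predicted (ratio 8.21, unadjusted exact binomial p = 0.0070, adjusted 0.57). Its best peak held 4 tags. Gli2, an effector of Hedgehog signalling, had 20 where 9.56 were predicted, with a best peak of 32 tags (unadjusted exact binomial p = 0.0052, adjusted 0.53). Notch1 had 8 where 3.41 were predicted. Itgb3, which encodes the luminal progenitor marker CD61, had 55 where 36.8 were predicted, and its best fold was only 49.8 although that peak held 103 tags. The 2 with fewer were Sox5, with 16 where 28.4 were predicted, and Itga2b, with 1 where 6.13 were predicted. Itgb3 and Itga2b both lie on chromosome 11. Itga2b is 16587 bp long, and the longer Gata3, of 30876 bp, had 1.45 predicted, so summits were dense in the flanks of Itga2b. The part of regional density in the counts of Itgb3 and Itga2b was not tested.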
